A study of Homo sapiens with 6 samples.

Results

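Matrix metalloproteases (MMPs) are zinc-dependent enzymes that cut collagens, other matrix proteins and cell-surface proteins outside the cell. They are made as inactive precursors and are held in check by the tissue inhibitors of metalloproteases (TIMPs), which bind their active sites. Fibroblast activation protein (FAP) and dipeptidyl peptidase 4 (DPP4) are related serine peptidases of the cell surface that cleave after proline, and FAP is best known from activated fibroblasts of tumour stroma. The genes described here are 5 MMPs (MMP1, MMP2, MMP9, MMP10 and MMP14), the inhibitors TIMP1, TIMP2 and TIMP3, and the peptidases FAP and DPP4. They were taken by name: each of the 10 symbols was matched to a single row of the 58381 gene IDs in the deposited table through the GENCODE 29 annotation on hg38.

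The table holds 6 RNA-seq libraries of MCF10AT1, a human breast epithelial cell line derived from immortal MCF10A cells that carry activated HRAS and were passaged as a mouse xenograft. Antibodies to CD24 and CD44, both cell-surface proteins, served for the sort. The CD24low fraction (also CD44high) and the CD24high fraction (also CD44+) have 3 libraries each, and the submitters' column names call them CSC and Bulk. All cells were grown in the same medium with horse serum, insulin, EGF, cholera toxin and hydrocortisone, so each value below belongs to 1 cell line in 1 culture condition. The series title names RUNX factors and breast cancer stem cells, and the comparison asks how the transcripts differ between the fractions.

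Depth was 24421025 to 26988295 recovered reads per CD24low library and 16691162 to 27293177 per CD24high library. CD24 transcripts followed the sort, with 588, 329 and 1370 normalized counts in CD24low replicates 1, 2 and 3, against 4043, 2325 and 5687 in CD24high replicates 1, 2 and 3. CD44 transcripts overlapped between the fractions, with 8294, 7479 and 6866 normalized counts in the CD24low and 8553, 7878 and 8993 in the CD24high libraries. Epithelial marker genes, among them EPCAM, CDH1 and KRT5, were all above the filter (8 of 8), with summed levels of 65155 to 99691 normalized counts in CD24low and 93284 to 114622 in CD24high libraries. All 8 had a difference below 0, with a median of -0.62 on the log2 scale used below. The fractions did not overlap for 4 (EPCAM, CDH1, KRT5 and TP63), where 9.32% of all tested genes had CD24low below without overlap. By DESeq2, TP63 (adjusted p = 7e-06, limma adjusted p = 0.068) and CDH1 (adjusted p = 0.013, limma adjusted p = 0.17) were lower in CD24low, where it called 1.15% of all tested genes lower. Of 8 fibroblast markers 2 were above the filter, and LUM had no read in any library. Leukocyte marker sums were 139 to 243 normalized counts in CD24low and 111 to 145 in CD24high libraries, and endothelial sums were 105 to 342 in CD24low and 87.1 to 396 in CD24high libraries. CD14 and CD68 carried the leukocyte sums and PECAM1 the endothelial sums, and each of these overlapped between the fractions. The remaining markers of these lists (PTPRC, CD3E, MS4A1, LYZ, VWF, CDH5 and KDR) had 0 to 8 reads in each library. Reads of rRNA genes took 7.15%, 7.07% and 1.97% of the CD24low and 1.30%, 2.27% and 10.2% of the CD24high libraries, in order of replicate number. Differences are therefore also given among the low-rRNA libraries (CD24low replicate 3 against CD24high replicates 1 and 2) and among the high-rRNA libraries (CD24low replicates 1 and 2 against CD24high replicate 3), each with 1 library on a side and no test.

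Among the members above the filter on low values, TIMP1 had the largest difference between the fractions and was higher in CD24low cells, and FAP had the largest of those below 0. Of the 10 members, 6 averaged at least 10 normalized counts and were tested (TIMP1, TIMP2, TIMP3, MMP14, MMP2 and FAP), and 4 lay below that filter (MMP1, MMP9, MMP10 and DPP4). Each difference subtracts CD24high from CD24low after taking log2 (normalized count + 1), and was tested with limma and adjusted over the 16047 genes above the filter. By limma's adjusted p, 0 of the 6 passed 0.05, where 0% of all tested genes did; at an unadjusted p below 0.05 there were 3 of 6 (TIMP1, TIMP3 and FAP), where 13.5% of all tested genes lay, 6.34% higher and 7.15% lower in CD24low. The fractions did not overlap for the same 3 of the 6, where 19.5% of all tested genes did not overlap, 10.2% with CD24low above and 9.32% with CD24low below. DESeq2 on whole reads recovered from the table called 2 of the 6, where it called 2.51% of all tested genes. It called 1 higher (TIMP1), beside 1.36% of all tested genes, and 1 lower (FAP), beside 1.15%. EdgeR's quasi-likelihood test called 0 of the 6 and 0 genes in all.

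**Figure D1:**
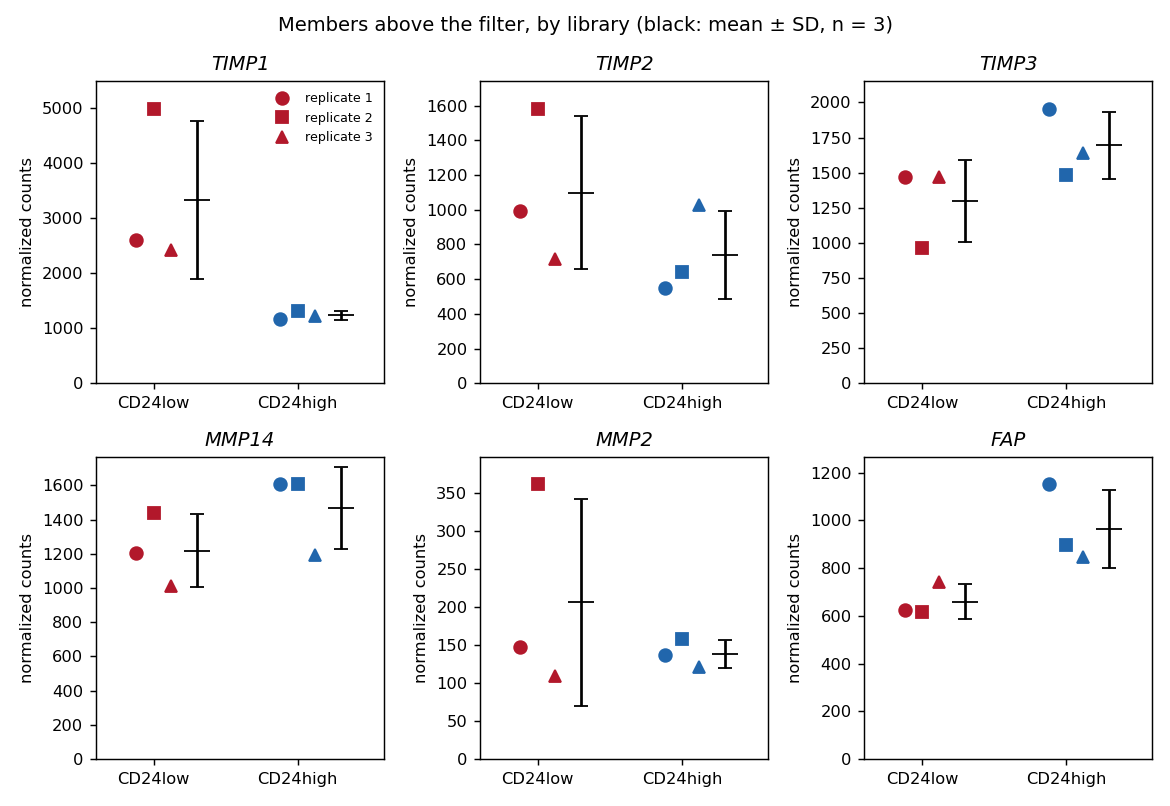
Normalized counts of the 6 members above the filter in each library, with CD24low libraries in red on the left, CD24high libraries in blue on the right and the mean ± SD of 3 libraries in black; the axes start at 0. TIMP1 was at 2418 to 4997 in CD24low and at 1159 to 1319 in CD24high libraries, FAP was lower in each CD24low library than in any CD24high library, and TIMP2, MMP14 and MMP2 overlapped.

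TIMP1, a secreted inhibitor that binds most MMPs and pairs with the MMP9 precursor, lies on chromosome X at 47582313 to 47586789 on the plus strand (ENSG00000102265.11, hg38). It had 2604, 4997 and 2418 normalized counts in CD24low replicates 1, 2 and 3, against 1159, 1319 and 1219 in CD24high replicates 1, 2 and 3. All CD24low libraries lay above all CD24high libraries, and the CD24high values were close together while CD24low replicate 2 stood well above its group. The means were 3340 ± 1438 in CD24low and 1232 ± 80.7 in CD24high cells (SD, n = 3 each). By the difference of the mean log2 values, TIMP1 was 2.56-fold higher in CD24low (log2 1.36, SE 0.24, 95% interval 0.83 to 1.89). Limma's adjusted p was 0.078, DESeq2's 1.6e-06 and edgeR's 0.12. The difference was 1.03 without CD24low replicate 2 (limma adjusted p = 0.058) and 1.55 without CD24low replicate 3 (limma adjusted p = 0.014), and with any 1 library left out limma's adjusted p ran from 0.014 to 0.28. It was 0.97 among the low-rRNA and 1.56 among the high-rRNA libraries. In these bulk libraries more cells that make TIMP1 and more TIMP1 RNA per cell cannot be told apart.

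The fibroblast marker sum was higher in the same libraries, with 1049, 3839 and 887 normalized counts in the CD24low and 171, 359 and 52.6 in the CD24high libraries. DCN, which encodes the proteoglycan decorin, made up 93.9% to 96.5% of that sum in CD24low libraries. Its share was 85.4%, 90.6% and 19.4% in CD24high replicates 1, 2 and 3. DCN had 985, 3704 and 846 normalized counts in the CD24low and 146, 325 and 10.2 in the CD24high libraries (log2 4.16, limma adjusted p = 0.16, DESeq2 adjusted p = 0.11). Without DCN the other 7 markers summed to 64.3, 135 and 41.1 normalized counts in CD24low and to 24.9, 33.6 and 42.4 in CD24high libraries, and these ranges overlap. COL1A1 had 58.2, 110 and 27.4 normalized counts in the CD24low and 18.3, 29.6 and 38.0 in the CD24high libraries, which overlapped. COL3A1 had 17 reads over the CD24low and 1 read over the CD24high libraries, without overlap, and PDGFRB had 25 reads over the CD24low and 11 over the CD24high libraries, with overlap. PDGFRA, THY1 and COL1A2 had at most 4 reads over a fraction and LUM none. The part of the fibroblast and epithelial marker genes in the TIMP1 difference was not tested.

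TIMP3, an inhibitor that stays bound to the matrix and also inhibits ADAM and ADAMTS proteases, lay in the other direction. It is on chromosome 22 at 32801701 to 32863043, plus strand (ENSG00000100234.11), inside SYN3 on the other strand, which shares no exon base with it and had 10 to 32 reads per library. Its values were 1468, 960 and 1469 normalized counts in CD24low replicates 1, 2 and 3, against 1957, 1485 and 1641 in CD24high replicates 1, 2 and 3. The groups did not overlap, but only just: CD24low replicates 1 and 3 lay close below CD24high replicate 2. The difference was -0.40 (SE 0.18, 95% interval -0.80 to -0.00, limma adjusted p = 0.37, DESeq2 adjusted p = 0.34) and did not pass. It was -0.20 without CD24low replicate 2 and -0.50 without CD24low replicate 3. Among the low-rRNA libraries it was -0.21, and among the high-rRNA libraries -0.47.

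TIMP2, the inhibitor that also bridges MMP14 and the MMP2 precursor at the cell surface, did not separate the fractions. It is on chromosome 17 at 78852977 to 78925387, minus strand (ENSG00000035862.12). It had 993, 1584 and 719 normalized counts in CD24low replicates 1, 2 and 3, against 549, 639 and 1026 in CD24high replicates 1, 2 and 3. CD24high replicate 3, the library with the highest rRNA share, lay above CD24low replicates 1 and 3, while the other CD24high libraries lay below every CD24low library. The difference was 0.55 (SE 0.29, limma adjusted p = 0.44), and it was 0.25 without CD24low replicate 2, 0.82 without CD24low replicate 3, 0.81 without CD24high replicate 3, and 0.28 among the low-rRNA and 0.29 among the high-rRNA libraries. CEP295NL lies within TIMP2 on the same strand, shares 198 exon bases with it and had 11.3% to 11.8% of its read number in CD24low and 13.4% to 15.2% in CD24high libraries, so the reads of these genes may not be fully separate.

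The promoter windows of TIMP1 and TIMP3, members whose libraries separated in opposite directions, are shown for the 150 bases before the annotated start, 5′ to 3′ on the coding strand, from RefSeq on GRCh38.p14 (chrX:47582286-47582435 and chr22:32801555-32801704). Capitals mark matches to the motifs searched: the AP-1 motif TGANTCA, which reads the same on both strands, the RUNX motif TGTGGT on either strand, and TATAAA on the coding strand.
TIMP1: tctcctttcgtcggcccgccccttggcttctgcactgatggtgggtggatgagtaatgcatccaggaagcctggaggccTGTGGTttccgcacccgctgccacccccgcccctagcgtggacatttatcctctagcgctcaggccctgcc
TIMP3: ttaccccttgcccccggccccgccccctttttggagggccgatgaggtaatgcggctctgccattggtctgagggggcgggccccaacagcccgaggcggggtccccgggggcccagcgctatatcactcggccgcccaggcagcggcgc
The GENCODE gene span of TIMP1 begins upstream of the RefSeq start, inside the stretch shown. The TIMP1 window holds the RUNX letters from 71 to 66 bases before the start, and the TIMP3 window holds none of the 3 motifs. Sequence windows of 300 bases (250 before to 50 after the start) were at hand for 5 of the 10 members. The RUNX letters were in 2 of those 5, TIMP1 and MMP14 (177 to 172 bases before its start, on the other strand), and in 13.1% of all 35116 windows. These matches are letters only and say nothing of binding. Only exact letters were searched, so near matches are not marked. In the TIMP1 window tgagtaa departs from TGANTCA in its next-to-last letter alone.

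RUNX2, a transcription factor of the RUNX family, had 111, 182 and 88.2 normalized counts in CD24low replicates 1, 2 and 3, against 32.4, 37.5 and 29.2 in CD24high replicates 1, 2 and 3. RUNX1 had 1087, 937 and 1163 normalized counts in the CD24low and 1246, 1111 and 1862 in the CD24high libraries. The libraries did not overlap for RUNX2 (log2 1.85, limma adjusted p = 0.068, DESeq2 adjusted p = 1.2e-05) and overlapped for RUNX1. A link of either factor to TIMP1 was not tested.

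MMP14, the membrane-anchored collagenase that activates the MMP2 precursor, was the most abundant MMP, and its fractions overlapped. It is on chromosome 14 at 22836557 to 22849027, plus strand (ENSG00000157227.12), and no other annotated gene overlaps it. Its values were 1203, 1438 and 1011 normalized counts in CD24low replicates 1, 2 and 3, against 1606, 1607 and 1192 in CD24high replicates 1, 2 and 3. The library numbered 3 was the lowest of its group on either side. The difference was -0.27 (SE 0.16, 95% interval -0.64 to 0.09, limma adjusted p = 0.50), and it was -0.15 without CD24low replicate 3 and -0.41 without CD24high replicate 3. It was -0.67 among the low-rRNA and 0.14 among the high-rRNA libraries.

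MMP2, the gelatinase that MMP14 activates, is on chromosome 16 at 55389700 to 55506691, plus strand (ENSG00000087245.12). It had 148, 362 and 109 normalized counts in CD24low replicates 1, 2 and 3, against 137, 158 and 121 in CD24high replicates 1, 2 and 3. CD24low replicate 2 alone stood apart, and the other CD24low values lay around those of CD24high. The difference of 0.38 (SE 0.37, 95% interval -0.45 to 1.21, limma adjusted p = 0.69) turned to -0.12 without that library. CD24low replicate 2 was also the highest of the 6 libraries for TIMP1 and TIMP2 and the lowest for TIMP3 and FAP; over all tested genes it was the highest for 23.7% and the lowest for 26.3%. AC007336.3, a gene model within MMP2 on the same strand, shares 174 exon bases with it and had 6.31% to 10.3% of its read number in CD24low and 8.49% to 13.3% in CD24high libraries.

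The log2 ratio of MMP14 to TIMP2 within a library, which does not depend on the size factor, was 0.28, -0.14 and 0.49 in CD24low replicates 1, 2 and 3, against 1.55, 1.33 and 0.22 in CD24high replicates 1, 2 and 3. The groups overlapped through CD24high replicate 3. By an exact permutation test, two-sided, the difference of -0.82 had p = 0.3 (0.6 adjusted over 2 ratios), where 3 against 3 libraries cannot go below 0.1. The log2 ratio of MMP2 to TIMP2 averaged -2.53 ± 0.35 in CD24low and -2.37 ± 0.62 in CD24high libraries (SD, n = 3 each; exact permutation p = 0.8). Ratios of MMP1 and MMP9 to TIMP1 and of FAP to DPP4 were not formed, since MMP1, MMP9 and DPP4 each had a library with 0 reads.

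MMP1, MMP9 and MMP10, the interstitial collagenase, the second gelatinase and a stromelysin, were near the detection floor. MMP1 (chromosome 11, 102789920 to 102798160, minus strand) had 1, 1 and 0 reads in CD24low replicates 1, 2 and 3, against 7, 4 and 3 reads in CD24high replicates 1, 2 and 3. Each CD24low library had fewer reads than any CD24high library. With 2 reads against 14 over the groups, the ratio of CD24low to CD24high per unit of size factor was 0.13, with an exact 95% interval of 0.014 to 0.56 that covers counting error only. With no filter on low values, limma's adjusted p for MMP1 was 0.15 and edgeR's 0.15, and DESeq2 gave no adjusted p (unadjusted 0.055).

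MMP9 (chromosome 20, 46008908 to 46016561, plus strand) had 0, 3 and 2 reads in CD24low replicates 1, 2 and 3, against 8, 1 and 4 reads in CD24high replicates 1, 2 and 3. The groups overlapped, and the ratio was 0.35 (exact 95% interval 0.097 to 1.04). MMP10 (chromosome 11, 102770503 to 102780628, minus strand) had 1, 0 and 0 reads in CD24low replicates 1, 2 and 3, against 4, 1 and 1 reads in CD24high replicates 1, 2 and 3, a ratio of 0.15 (exact 95% interval 0.0033 to 1.25). MMP10 and MMP1 are neighbours, with 9291 bases between them on chromosome 11. FOS and JUN encode factors that act at MMP promoters. FOS had 2099 to 3141 normalized counts in CD24low and 2076 to 3147 in CD24high libraries. JUN had 1200 to 1726 in CD24low and 1468 to 1604 in CD24high libraries. A link of these factors to the MMP genes was not tested.

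The MMP10 promoter window is shown because it was the only member window at hand with the AP-1 letters, and it also holds TATAAA (chr11:102780629-102780778, GRCh38.p14, RefSeq, minus strand; capitals as above).
MMP10: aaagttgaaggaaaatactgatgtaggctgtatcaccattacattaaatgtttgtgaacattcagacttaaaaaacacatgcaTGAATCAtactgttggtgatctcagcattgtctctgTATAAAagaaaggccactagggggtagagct
The AP-1 letters lie from 67 to 61 bases and TATAAA from 31 to 26 bases before the start. AP-1 letters were in 7.71% and TATAAA in 7.33% of the 35116 windows.

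FAP, the membrane-bound gelatinase and peptidase, is on chromosome 2 at 162170684 to 162245151, minus strand (ENSG00000078098.13). It had 622, 614 and 742 normalized counts in CD24low replicates 1, 2 and 3, against 1152, 898 and 845 in CD24high replicates 1, 2 and 3. None of the CD24low values reached the lowest CD24high value. The means were 660 ± 71.8 in CD24low and 965 ± 164 in CD24high cells (SD, n = 3 each). By the difference of the mean log2 values, FAP was 1.45-fold lower in CD24low (log2 -0.54, SE 0.15, 95% interval -0.87 to -0.21). Limma's adjusted p was 0.18 (0.084 to 0.44 with any 1 library left out), DESeq2's 0.036 and edgeR's 0.17. The difference was -0.41 without CD24high replicate 1 and -0.63 without CD24high replicate 3 or CD24low replicate 3, and it was -0.45 among the low-rRNA and -0.45 among the high-rRNA libraries. The fibroblast marker sum given above was higher in each CD24low library than in any CD24high library. DCN made up most of that sum in every library but CD24high replicate 3, and without DCN the sums overlapped. The part of the fibroblast and epithelial marker genes in the FAP difference was not tested.

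DPP4, the close relative of FAP that cleaves incretins and binds adenosine deaminase, is on chromosome 2 at 161992241 to 162074542 on the same strand, 96.1 kb from FAP. It had 1, 0 and 0 reads in CD24low replicates 1, 2 and 3, against 0, 1 and 0 in CD24high replicates 1, 2 and 3. A count of 0 allows up to 3 reads, or 2.64 to 2.94 normalized counts in a CD24low and 2.49 to 4.38 in a CD24high library, so DPP4 lay at or under the floor in both fractions and no fold is given. ADA, the adenosine deaminase that DPP4 binds, had 213, 434 and 187 normalized counts in the CD24low libraries, against 137, 141 and 151 in the CD24high libraries (log2 0.85, limma adjusted p = 0.24, DESeq2 adjusted p = 0.049).

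Per kilobase of merged exons, which makes levels comparable between genes, TIMP1 was the most abundant member, with 2167 ± 933 normalized counts per kb in CD24low and 800 ± 52.3 in CD24high cells (SD, n = 3 each). Its mean level was above that of 95.8% of the tested genes. TIMP3 (282 ± 63.8 in CD24low and 368 ± 52.2 in CD24high) and MMP14 (273 ± 47.9 in CD24low and 329 ± 53.6 in CD24high) followed and could not be ordered, since TIMP3 was the higher in 4 of 6 libraries and their ranges overlapped. TIMP2 (195 ± 78.4 in CD24low and 131 ± 44.9 in CD24high) lay below MMP14 in 6 of 6 libraries although the ranges overlapped, and above FAP (94.2 ± 10.3 in CD24low and 138 ± 23.4 in CD24high) in 4 of 6. MMP2 (41.8 ± 27.6 in CD24low and 28.1 ± 3.74 in CD24high) was below FAP in each library, and MMP1, MMP9, MMP10 and DPP4 were at or below 2.95 per kb in each library. The merged exons include rare isoforms, which lowers the value of genes with long alternative ends.

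Summed per kb, the 4 TIMP genes reached 2185, 3732 and 2017 in CD24low replicates 1, 2 and 3, against 1275, 1292 and 1329 in CD24high replicates 1, 2 and 3. The 23 MMP genes summed to 409, 568 and 379 in the CD24low libraries, against 541, 544 and 452 in the CD24high libraries, and these ranges overlapped. The ratio of the sums, TIMP over MMP, was 5.34, 6.58 and 5.32 in CD24low replicates 1, 2 and 3, against 2.36, 2.38 and 2.94 in CD24high replicates 1, 2 and 3, and no test was made on it. TIMP1 supplied 77.3% to 86.9% of the TIMP sum in CD24low and 59.0% to 66.2% in CD24high libraries, and MMP14 supplied 56.7% to 65.8% of the MMP sum in CD24low and 59.1% to 66.5% in CD24high libraries.

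**Figure D2:**
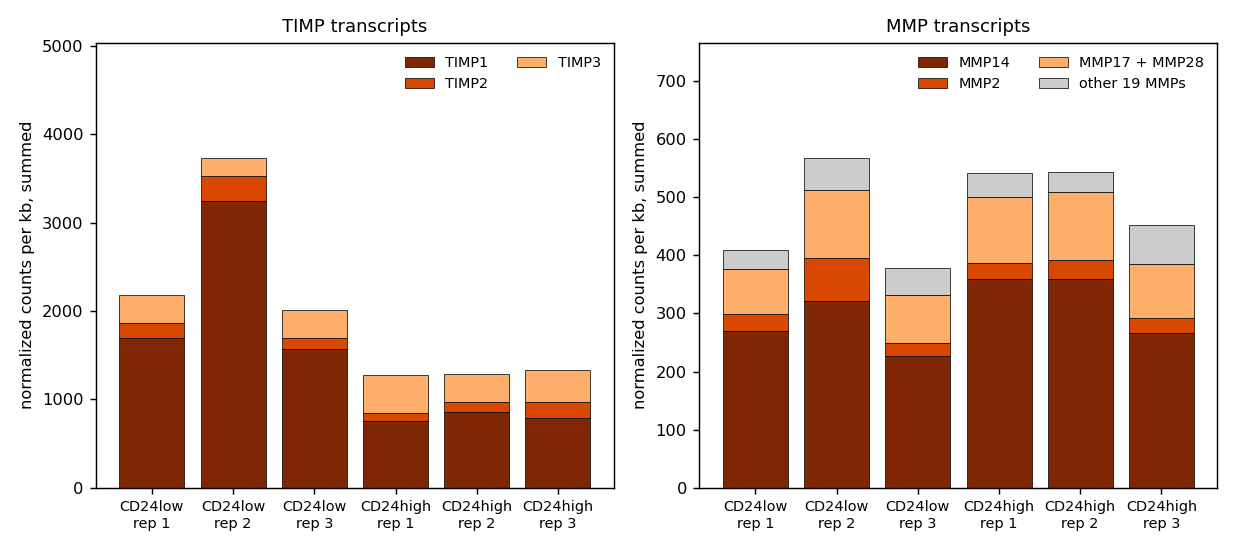
Summed levels of TIMP genes (left) and MMP genes (right) in normalized counts per kb of merged exons for each library, CD24low first, with colours for the contributing genes; the vertical scales differ between the panels and start at 0. The TIMP sums were 2017 to 3732 in CD24low and 1275 to 1329 in CD24high libraries, while the MMP sums overlapped.

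The other genes of the MMP family were mostly silent or did not separate. Of 23 MMP genes, 6 had no read in any library, 8 were above the filter and 0 were called by limma, DESeq2 or edgeR. Their median difference was 0.24, beside -0.01 over all tested genes. MMP28, the epidermal MMP epilysin, had 126, 204 and 150 normalized counts in the CD24low libraries, against 248, 246 and 172 in the CD24high libraries, which overlapped (-0.48, limma adjusted p = 0.38). MMP17, a membrane MMP held by a lipid anchor, had 130, 182 and 122 normalized counts in the CD24low libraries, against 103, 125 and 133 in the CD24high libraries. MMP7, the matrilysin of glandular epithelia, varied widely within each fraction, with 6.17, 16.2 and 45.1 normalized counts in CD24low replicates 1, 2 and 3, against 4.15, 9.88 and 61.4 in CD24high replicates 1, 2 and 3.

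**Figure D3:**
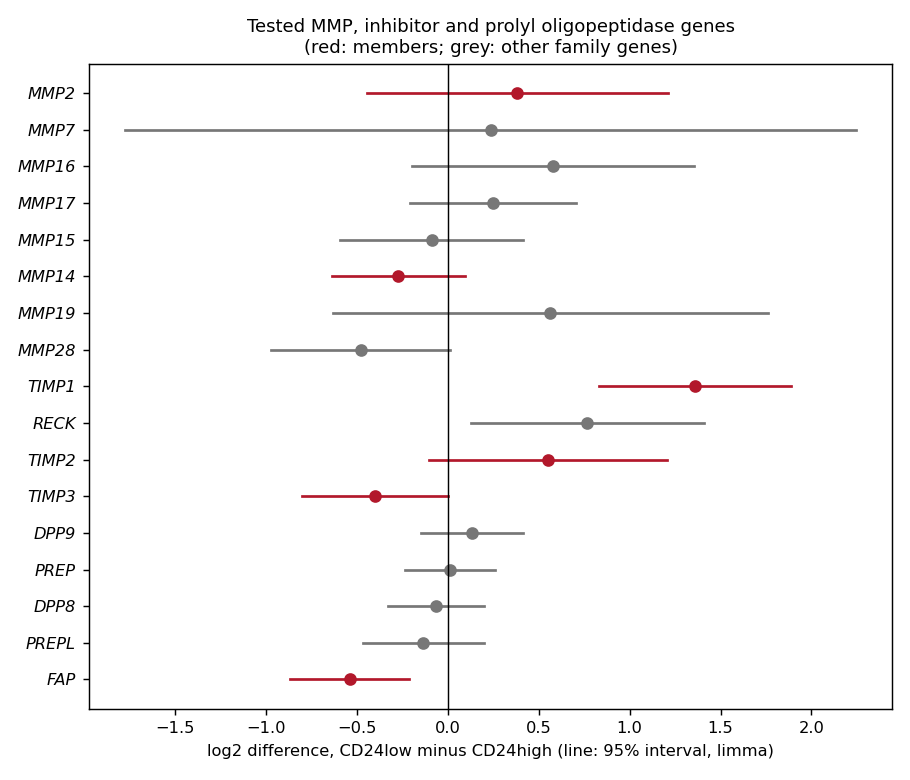
Log2 differences (CD24low minus CD24high) of the tested MMP, inhibitor and prolyl oligopeptidase genes, with limma's 95% interval as a line, members in red and other family genes in grey. The intervals of TIMP1 and RECK lie above 0 and that of FAP lies below 0, and that of TIMP3 ends at 0, none with a limma adjusted p below 0.05.

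Among 6 inhibitor genes, 4 were above the filter, with a median of 0.66. RECK, a membrane-anchored inhibitor of MMPs, had 99.6, 179 and 80.3 normalized counts in CD24low replicates 1, 2 and 3, against 72.2, 69.2 and 57.0 in CD24high replicates 1, 2 and 3. The libraries did not overlap (0.77, limma adjusted p = 0.30, DESeq2 adjusted p = 0.17). TIMP4 had 1 read in all and A2M none. Of the 8 prolyl oligopeptidases, the family of FAP and DPP4, 5 were above the filter with a median of -0.07, and DPP8, DPP9, PREP and PREPL, its intracellular members, differed by -0.13 to 0.13.

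Of 55 tested genes in the related lists that are not members, limma and edgeR called 0 and 12 had an unadjusted limma p below 0.05 (7 higher and 5 lower), beside 13.5% of all tested genes. DESeq2 called 3 higher, where it called 1.36% of all tested genes, and 0 lower. The 3 were RUNX2, ADA and ADAM12, a disintegrin metalloprotease with 257, 369 and 160 normalized counts in the CD24low libraries, against 145, 120 and 118 in the CD24high libraries (0.96, limma adjusted p = 0.19, DESeq2 adjusted p = 0.019). The ADAM list had 7 of 11 genes above the filter with a median of -0.11, and the ADAMTS list 8 of 19 with a median of -0.01. The ADAMTS differences ran from -0.59 for ADAMTS9 to 2.18 for ADAMTS1. ADAMTS1 did not overlap (limma adjusted p = 0.18, DESeq2 adjusted p = 0.067), with 38, 32 and 12 reads in the CD24low and 11, 5 and 1 in the CD24high libraries. Genes of MMP precursor activation had 8 of 9 above the filter and a median of 0.03, with FURIN, the convertase that activates MMP14, at 1784 ± 139 in CD24low and 1771 ± 126 normalized counts in CD24high cells (SD, n = 3 each). The precursor activation list ran from -1.095 for PCSK5 (limma adjusted p = 0.23, DESeq2 adjusted p = 0.10) to 0.78 for PLAT (limma adjusted p = 0.33, DESeq2 adjusted p = 0.12), and both overlapped between the fractions. Docking and clearance genes had 6 of 8 above the filter and a median of 0.02. LRP1, the endocytic receptor that clears MMPs and TIMP complexes, had 285, 1151 and 170 normalized counts in the CD24low libraries, against 53.1, 112 and 84.7 in the CD24high libraries (2.25, limma adjusted p = 0.17, DESeq2 adjusted p = 0.058). Of 15 transcription factors that act at MMP promoters all were above the filter, with a median of 0.01.

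Genes with the most similar profiles were found by the root mean square difference between centred log2 values over the 6 libraries, among 11469 genes with a mean of at least 100. For TIMP1, whose own SD over the libraries was 0.76 on that scale, they were MAGED2 (0.10), BIN1 (0.11) and MT1X (0.13), a metallothionein with near-identical relatives that may take some of its reads. For FAP (SD 0.32) they were CD2AP (0.05), CBLL1 (0.06) and PUS7L (0.06). For TIMP2 (SD 0.51) they were MAST3 (0.08), PML (0.09) and NCKAP5L (0.11), and for MMP2 (SD 0.56) SMIM14 (0.08), CALCOCO1 (0.10) and DUSP10 (0.15).

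**Figure D4:**
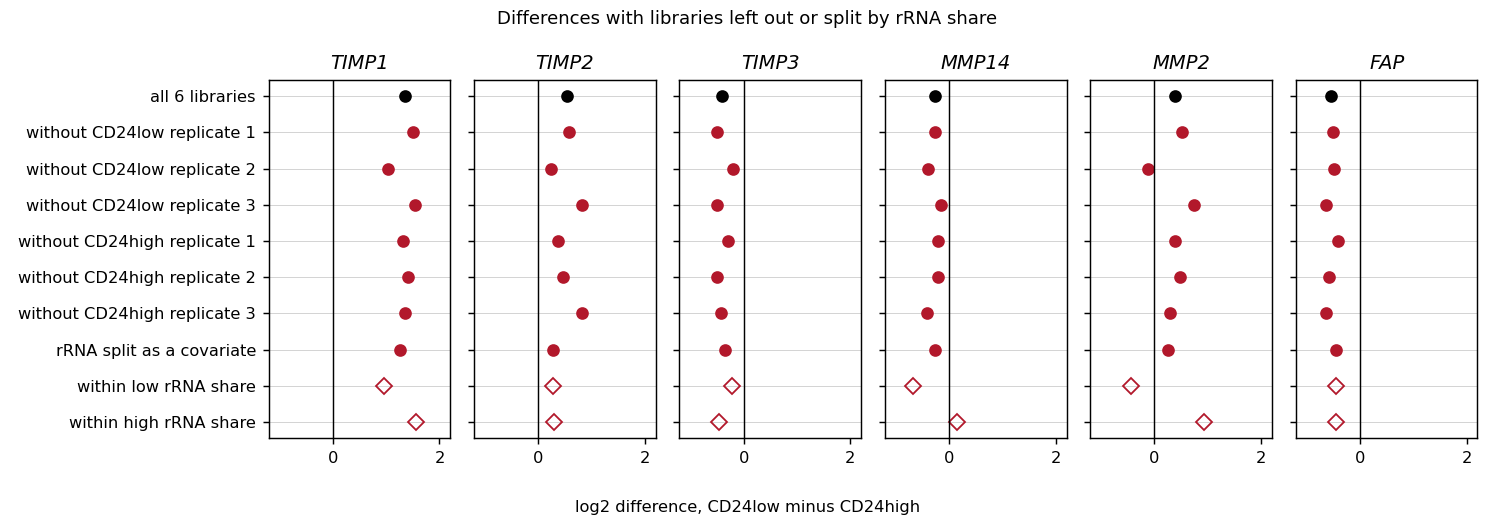
Log2 differences (CD24low minus CD24high) of the 6 tested members with all libraries (black), with each library left out or the rRNA split as a covariate (red dots), and within libraries of low or high rRNA share (open diamonds, untested). TIMP1 stayed between 0.97 and 1.56 and FAP between -0.63 and -0.41, while MMP2 and MMP14 crossed 0.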

How the data were processed

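Per the submitters' processing notes, the authors used STAR 2.5.2, R 3.5.0, DESeq2 and hg38; for the read counter, its strand setting and the annotation: not given in the sources used here. The deposited signal per gene is a read count scaled by the authors with a size factor for each library. Dividing by the smallest value of each library gave whole reads for 100% of values within 0.1 reads. Of 58381 gene IDs, 58261 matched GENCODE 29 without version. In a chi-square test no 2 replicates of a fraction were alike within sampling noise. Separate cultures are not named in any label, so the p-values reflect the spread of these 6 libraries alone and that spread may be technical.

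Limma 3.58.1 with a mean-variance trend was run in R 4.3.3 on log2 (normalized count + 1), two-sided, over 16047 genes with a mean of at least 10, with Benjamini-Hochberg adjustment and a threshold of 0.05; low genes are understated by the pseudocount. DESeq2 1.42.0 and edgeR 4.0.16 were run on recovered reads. On simulated data DESeq2 made more false calls than limma or edgeR, so genes called by DESeq2 alone are less certain. Floors were 3 reads per library and, like exact Clopper-Pearson intervals, cover counting error only. Alternatives were pseudocounts, filters, scalings, the replicate block, the rRNA split and each library left out. Members and lists were chosen with earlier results of these data known. The rule for names took the members, up to 4 genes per list past limma's or DESeq2's adjusted p, and the 3 nearest profiles; other named genes were chosen after their values were seen.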

Additional observations from a re-analysis of the deposited data

How the results depend on the processing

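TIMP1, TIMP2, TIMP3, MMP14 and FAP kept their direction under the fits tried on all or all but 1 library. Limma called 0 genes in the main setting, 164 with no filter on low values and 366 without CD24low replicate 3. It called 103 without both libraries numbered 3, a setting chosen after seeing the data. DESeq2 on recovered reads called 402. Members called (0 of 6) came to 1 with no filter, 2 with DESeq2 and 1 without CD24low replicate 3. With 1 library left out the count of genes ran from 0 to 366 and that of members from 0 to 1. TIMP1 passed with no filter (1.36), DESeq2 (1.44) and without CD24low replicate 3 (1.55), and ran from 1.03 to 1.55 over left-out libraries. FAP passed with DESeq2 (-0.55). With the rRNA split as a covariate TIMP1 was 1.27 (limma adjusted p = 0.28) and FAP -0.45 (limma adjusted p = 0.34). Without the mean-variance trend limma's adjusted p was 0.23 for TIMP1 and 0.31 for FAP. With the replicate block limma called 716 genes and 1 member (TIMP1, 1.36), and DESeq2 called 677 genes and 2 members (TIMP1, 1.36; FAP, -0.54). No label says that the replicate numbers mark pairs. Deviations of same-numbered libraries correlated by 0.27, 0.30 and 0.05, and those of differently numbered libraries by -0.263 to 0.075. CD24low replicates 1 and 2 correlated best with their own number. CD24low replicate 3 correlated by 0.075 with CD24high replicate 1 and by 0.05 with its own number. Whether same-numbered libraries are pairs is not known. MMP2 reversed to -0.12 without CD24low replicate 2 and ran from -0.12 to 0.74. Within low and high rRNA share MMP2 was -0.43 and 0.93, and MMP14 -0.67 and 0.14. The MMP14 to TIMP2 ratio was -0.15 within high share, and the MMP2 to TIMP2 ratio -0.72 and 0.64 within low and high share, and that ratio ran from -0.52 to 0.015 over left-out libraries, turning positive without CD24high replicate 1 (0.015) or 2 (0.0089). The cause of these changes was not tested. Depth limits MMP1, MMP9, MMP10 and DPP4, each with at most 8 reads in a library.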
